A study of Mus musculus with 12 samples.

Results

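The 9 genes described here encode parts of the WNT pathway that lie on either side of GSK3: the Frizzled receptors Fzd3 and Fzd4, the co-receptors Lrp5 and Lrp6, the Dishevelled proteins Dvl1, Dvl2 and Dvl3, and the target genes Nkd1 and Ccnd1. They were taken from deposited tables of mouse hippocampus by gene name, leaving out rows that the tables class as unannotated antisense, intronic, run-on or lincRNA loci. Each of the 9 names had exactly 1 row in each of the 3 tables, so no choice by locus length was needed, and the 9 stand among 14494 singly named genes found in any table. The genes were chosen by pathway membership with the fold changes and FDR values of these same comparisons known. Fzd4 in particular had been seen to pass the authors' test, so the values below are a description and give no separate support for its direction.

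The samples are 12 RNA-seq libraries of C57BL/6 hippocampus, made from poly(A) RNA and divided evenly among 4 groups. Vehicle was dripped into the nose of control mice, 5 µL per nostril on alternate days over 3 days. The siGSK3b group was given 10 µg of siRNA to GSK3β by this route and schedule. The L803mts group was given 60 µg of a peptide inhibitor of GSK3 in the same way. Mice of the ketamine group had 10 mg/kg of this NMDA receptor blocker injected into the peritoneum and were sampled at 24 h. Ketamine was compared with the same intranasal vehicle, so drug and route cannot be told apart. The labels give neither the age of the mice nor whether each library came from a separate mouse, so p-values measure the spread between libraries, which may be technical. In bulk tissue, fewer cells of a type and less RNA per cell cannot be told apart.

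WNT ligands are secreted proteins that bind a Frizzled receptor together with LRP5 or LRP6. The occupied receptor recruits Dishevelled, which holds the AXIN and GSK3 complex at the membrane, and β-catenin then escapes phosphorylation by GSK3 and degradation. GSK3 also acts at the receptor, where it phosphorylates the tail of LRP6. Stabilised β-catenin enters the nucleus and works with TCF/LEF factors on target genes. NKD1 is an inhibitor that binds Dishevelled and is induced by the pathway in many tissues. CCND1 (cyclin D1) drives entry into the cell cycle, and GSK3β can phosphorylate the protein and so promote its turnover. In the adult hippocampus the pathway is best known for its part in neurogenesis in the dentate gyrus.

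Each table compares 1 treatment with the same 3 control libraries and was quantified on its own, so the control libraries were measured 3 times. Values are FPKM, that is, fragments scaled to transcript length and to the mapped fragments of the library, and read depth is unknown. The tables hold 16687 (siGSK3b), 17394 (L803mts) and 17864 (ketamine) loci, with a median of 8.66 to 10.2 FPKM per library. Gsk3b, the target of the siRNA, was at 18.4, 19.3 and 18.9 FPKM under the siGSK3b label and at 18.0, 17.3 and 17.8 in control. Its mRNA was therefore not lower in the treated libraries, which all lay above control, as at 5.72% of all loci of that table. The label gives the treatment and not its effect, and the reason for this level was not tested. Directions below therefore refer to libraries labelled siGSK3b. All 12 markers of hippocampal neurons were measured in every table, with a mean log2(FPKM + 1) between 3.84 and 4.50 in every library. Their treated mean was higher for 4 of 12 with siGSK3b and 6 of 12 with ketamine, and lower for 11 of 12 with L803mts. A higher treated mean was seen at 51.9% (siGSK3b), 46.9% (ketamine) and 45.9% (L803mts) of all loci. In the L803mts table their summed FPKM was 1332, 1298 and 1484 in control and 1093, 1161 and 1175 with L803mts, with no overlap. In mean log2(FPKM + 1) the same groups did overlap, at 4.28, 4.41 and 4.45 in control and 4.05, 4.11 and 4.50 with L803mts. The same control libraries summed to 249, 262 and 285 FPKM in the siGSK3b table, so the sum depends on the table and is not read as a level of neurons. Choroid plexus markers set the control libraries apart. The mean log2(FPKM + 1) of 12 markers was 4.57, 2.09 and 1.23 in control replicates 1, 2 and 3 of the siGSK3b table, and their summed FPKM was 3805, 235 and 44.97.

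For 5 of the 9 genes the repeated measurement of the control libraries differed between tables by more than 1.5-fold in the mean. Of 11826 genes with a control mean of at least 1 FPKM in each table, 33.3% did so, and the median ratio of highest to lowest was 1.22. Fzd3, Fzd4 and Ccnd1 were the steady ones, with ratios of 1.01, 1.01 and 1.03. Dvl3 had a ratio of 1.47. Nkd1 had a control mean of 10.6 FPKM in the siGSK3b table and 10.3 in the L803mts table but 0.787 in the ketamine table, a ratio of 13.5. The control mean of Dvl1 was 4.50 FPKM in the siGSK3b table, 55.5 in the L803mts table and 29.8 in the ketamine table, a ratio of 12.3. Dvl2, Lrp5 and Lrp6 differed 2.55-fold, 2.27-fold and 2.02-fold. These are the same RNA libraries, so for those genes a level was compared only within a table.

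**Figure D1:**
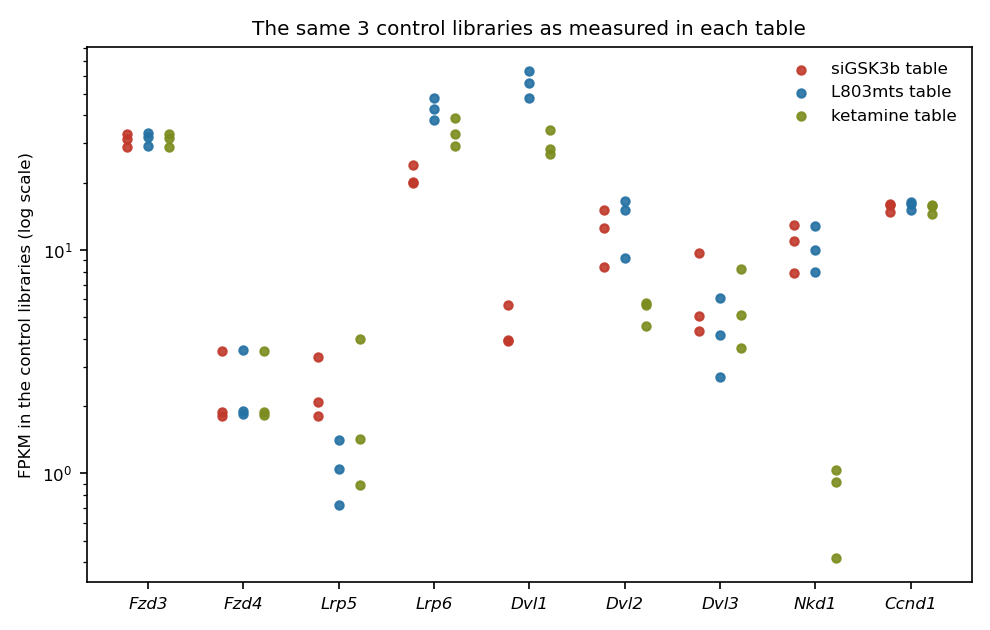
FPKM of each gene in the 3 control libraries (points, log axis), coloured by the table that reports them. Fzd3, Fzd4 and Ccnd1 lie at the same height in all tables, while the same libraries differ 12.3-fold for Dvl1 and 13.5-fold for Nkd1 in the mean.

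The locus limits differed in the same tables. On the mouse build NCBIM37, Dvl2 was measured over 6637 bases of chromosome 11 in the siGSK3b table (69814343 to 69820979) and over 6681 bases in the L803mts table (69814339 to 69821019). In the ketamine table its row covered 481 bases (69822175 to 69822655), starting 1155 bases beyond the end of the L803mts locus. Nkd1 covered 70214 bases of chromosome 8 in the siGSK3b table (91045401 to 91115614) and 70454 in the L803mts table, but 1861 bases in the ketamine table (91115909 to 91117769), again with no overlap. Both genes are annotated on the plus strand in GRCm38, which puts the ketamine loci on the downstream side. Lrp5 (chromosome 19, minus strand) covered 46985 bases in the siGSK3b table (3612400 to 3659384). In the L803mts and ketamine tables it covered 7870 and 1368 bases (3602349 to 3610218, and 3604127 to 3605494), which do not overlap the former. The Dvl1 row of the siGSK3b table was 1600 bases long (chromosome 4, 155232571 to 155234170), against 12203 and 11697 bases in the other tables. For these 4 genes the tables therefore report different parts of a gene. The loci of Lrp6 and Dvl3 also differed in length, the shorter ones lying within the longest. In the siGSK3b, L803mts and ketamine tables Lrp6 covered 95568, 120342 and 95610 bases, and Dvl3 covered 7173, 13800 and 13688. No annotation of NCBIM37 was used, so exons and UTRs are not assigned.

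The comparisons ask which transcripts differ after GSK3 is targeted by siRNA or peptide, or after ketamine. Fzd4 was the only 1 of the 9 to pass the authors' test at an FDR of at most 0.05, with higher means in the siGSK3b and L803mts tables. The other 8 genes passed in no table. Across all loci the authors called 0.508% with siGSK3b (0.281% higher, 0.226% lower), 0.65% with L803mts (0.574% and 0.0761%) and 0.439% with ketamine (0.308% and 0.131%). Those calls include the ones that brought Fzd4 onto the list, so nothing is read from the count. At an unadjusted p under 0.05 the authors' test had 2, 1 and 1 of the 9 genes in these tables, against 5.6%, 7.17% and 5.97% of all loci.

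By limma on log2(FPKM + 1), 0 of the 9 genes passed at an adjusted p of at most 0.05 in any table. Their smallest adjusted p was 0.848 with siGSK3b, 0.757 with L803mts and 0.623 with ketamine. Limma called 0.00612%, 0% and 0.0114% of all loci in these tables. At an unadjusted p under 0.05 limma had Fzd4 higher with siGSK3b and with L803mts and Dvl2 lower with ketamine, 1 of the 9 genes in each table. Of all loci 5.83% passed that mark with siGSK3b (2.99% higher, 2.84% lower), 6.18% with L803mts (3.61% and 2.57%) and 6.13% with ketamine (2.98% and 3.16%). Groups did not overlap for Fzd4 with siGSK3b, for Fzd4 and Lrp6 with L803mts, all higher, and for Dvl2 with ketamine, lower. Over all loci the groups did not overlap at 10.6% with siGSK3b (5.72% higher, 4.84% lower), 12.5% with L803mts (5.86% and 6.67%) and 11.5% with ketamine (5.28% and 6.19%).

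**Figure D2:**
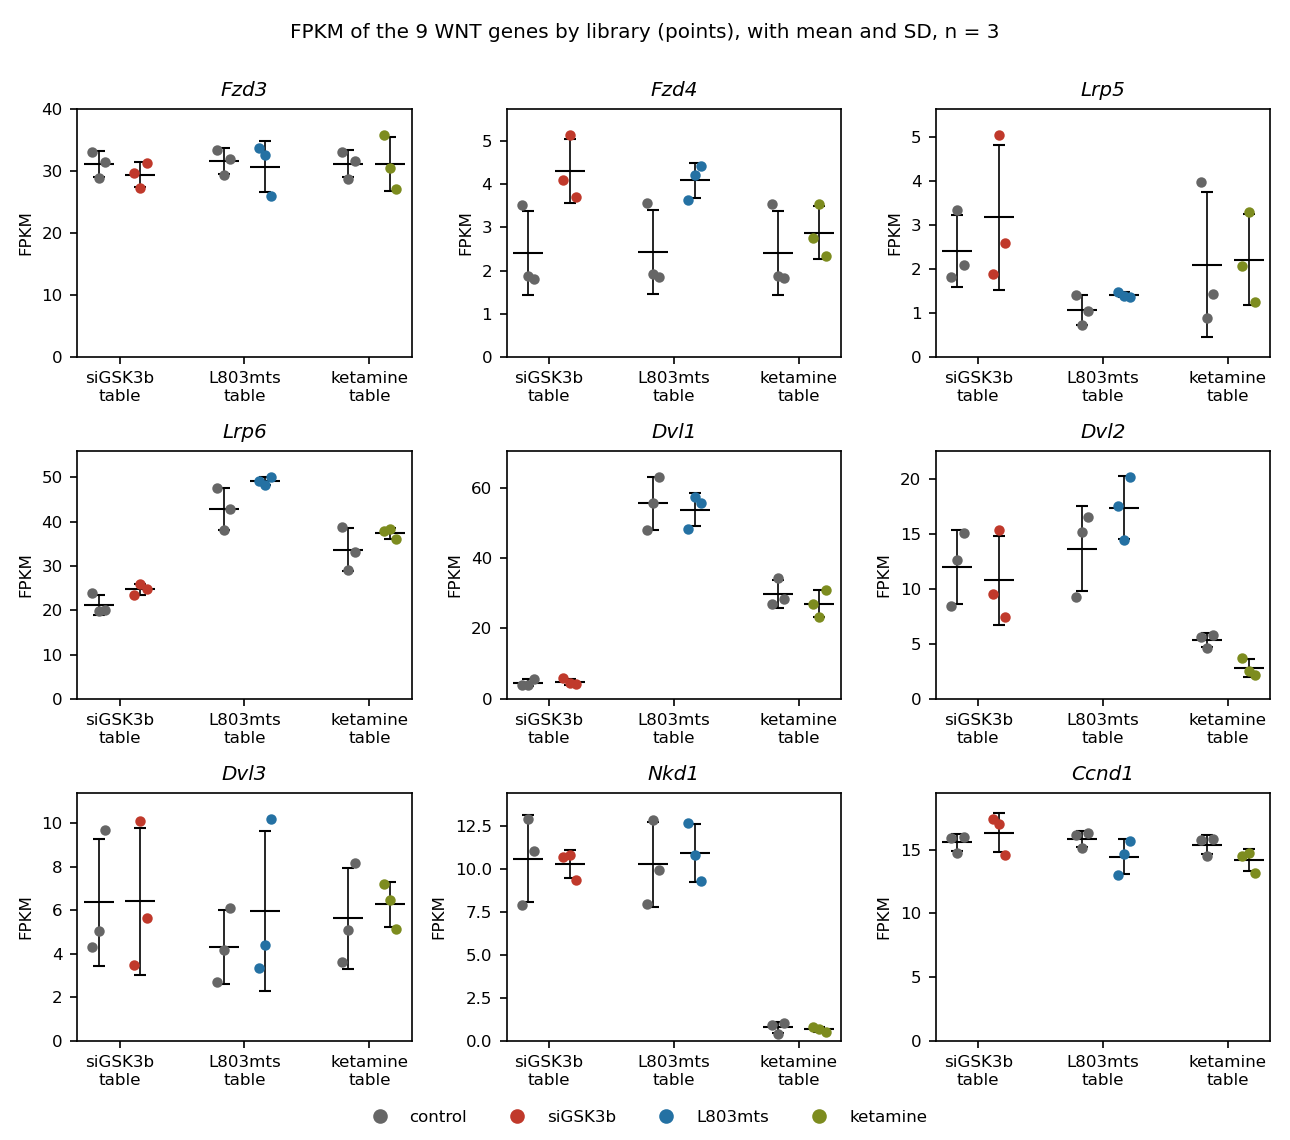
FPKM of each of the 9 genes in every library (points, linear axis from 0), by table, with the mean and SD of 3 libraries. Fzd4 is the gene whose treated libraries all lie above control in both the siGSK3b and the L803mts table, and control replicate 1, at 3.53 to 3.57 FPKM, stands well above the other control libraries.

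Fzd4 encodes a Frizzled receptor that also serves Norrin, the ligand that guides retinal and brain vessels. Its locus (chromosome 7, 96553427 to 96561681 in the siGSK3b table, NCBIM37) kept nearly the same limits in all tables. In the siGSK3b table it was at 3.53, 1.88 and 1.81 FPKM in control replicates 1, 2 and 3 and at 4.11, 5.14 and 3.70 under the siGSK3b label. The groups did not overlap, but control replicate 1 lay close below the lowest treated library. In the L803mts table the control libraries were at 3.57, 1.91 and 1.84 FPKM and the L803mts libraries at 3.64, 4.21 and 4.44. Again the groups did not overlap, and the lowest L803mts library was just above control replicate 1. For ketamine, control was at 3.54, 1.88 and 1.82 FPKM and ketamine at 2.76, 3.55 and 2.34. Here the groups overlapped, with ketamine replicate 2 level with control replicate 1.

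The mean of Fzd4 was 1.79-fold that of control in the siGSK3b table, 1.68-fold in the L803mts table and 1.19-fold in the ketamine table. The authors' deposited tables give log2 fold changes of 0.84, 0.75 and 0.26 (FDR 0.0126, 0.0119 and 0.949). On log2(FPKM + 1), which understates changes of low genes, the differences by limma were 0.67 (SE 0.23, adjusted p = 0.848), 0.60 (SE 0.22, adjusted p = 0.757) and 0.21 (SE 0.23, adjusted p = 0.929). Without control replicate 1 they were 0.89, 0.82 and 0.44 (adjusted p = 0.229, 0.373 and 0.618 by limma). Against control replicate 1 alone, a comparison chosen after seeing the data and without a test, they were 0.22, 0.16 and −0.24. The 3 comparisons share their control libraries and are not independent of each other.

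The choroid plexus markers are given beside Fzd4. All 12 were measured, and the treated mean was higher for 12 of 12 in each table. Their mean log2(FPKM + 1) was 5.04, 4.86 and 4.41 under the siGSK3b label, against 4.57, 2.09 and 1.23 in control. It was 3.98, 4.49 and 4.57 with L803mts against 4.45, 1.97 and 1.10 in control, and 4.48, 4.62 and 2.55 with ketamine against 4.72, 2.04 and 1.17. In every table control replicates 2 and 3 were lowest for both the markers and Fzd4. The order of the other libraries was not the same. The markers ran siGSK3b replicates 1 and 2, control replicate 1 and siGSK3b replicate 3 from the highest, while Fzd4 ran siGSK3b replicates 2, 1 and 3 and then control replicate 1. With L803mts both ran replicate 3 and then replicate 2, but control replicate 1 and L803mts replicate 1 changed places. With ketamine only the highest pair, control replicate 1 and ketamine replicate 2, changed places. The summed FPKM of the markers spanned 44.97 to 3805 in control and 3490 to 5171 under the siGSK3b label, 31.3 to 2366 and 1507 to 2503 in the L803mts table, and 33.1 to 2374 and 269.7 to 2234 in the ketamine table. Of the markers Aqp1 was listed at 0 in all control libraries of the siGSK3b and L803mts tables. The part of the choroid plexus signal in the Fzd4 values was not tested.

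**Figure D3:**
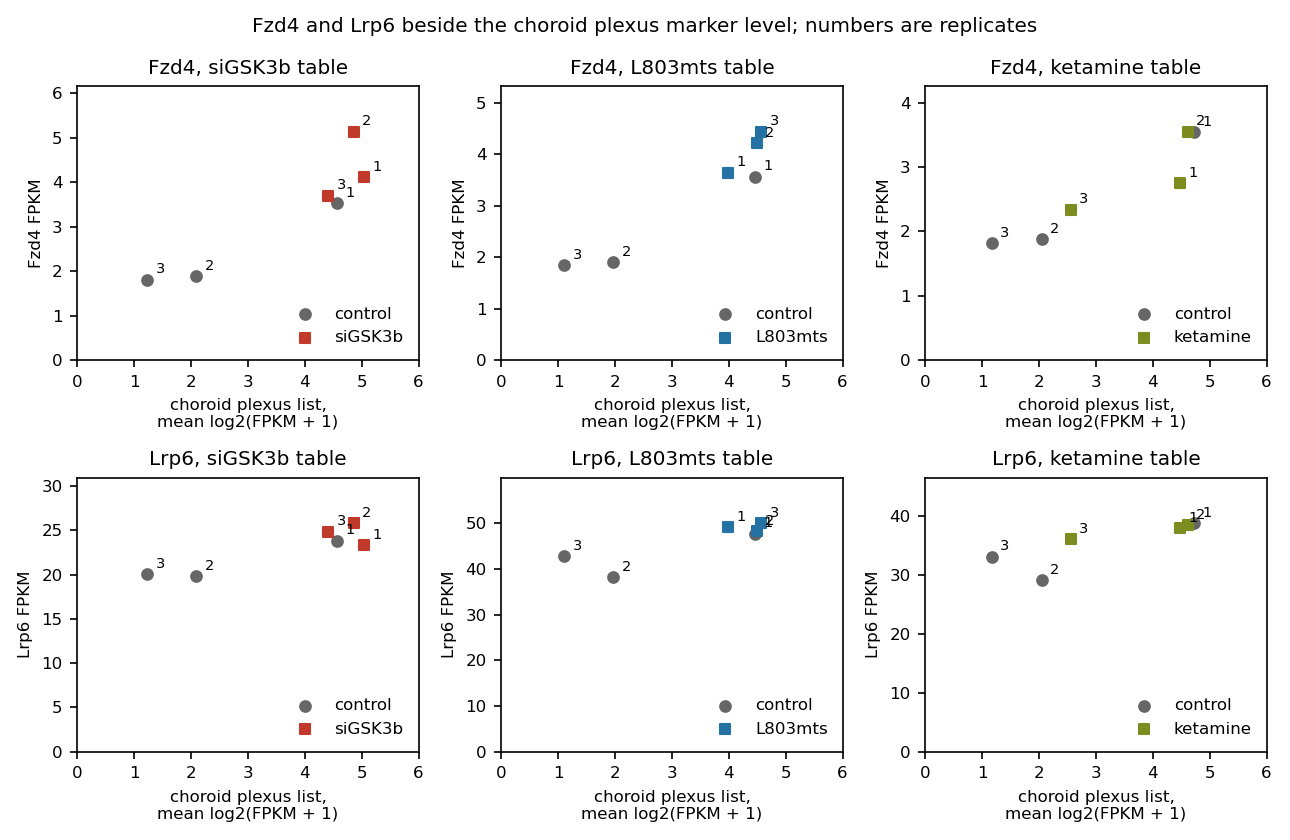
FPKM of Fzd4 (upper row) and Lrp6 (lower row) against the mean log2(FPKM + 1) of 12 choroid plexus markers, 1 point per library, numbered by replicate, in each table. Control replicates 2 and 3 lie furthest left and below the other libraries in each panel, at marker levels of 1.10 to 2.09. Control replicate 1 sits among or near the treated libraries.

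Markers of the other cell types and regions were read in the same way, as mean log2(FPKM + 1) of a list. Endothelial groups overlapped in each table, at 3.19 to 3.28 in control and 3.05 to 3.27 under the siGSK3b label and at 2.73 to 2.82 and 2.67 to 2.74 in the L803mts table. The treated mean was higher for 6, 4 and 5 of 10 endothelial markers with siGSK3b, L803mts and ketamine. Meningeal and fibroblast markers were at 2.40, 2.19 and 2.14 in control and 2.78, 2.85 and 2.86 with L803mts, higher for 11 of 12, against 7 of 12 with siGSK3b and 8 of 10 with ketamine.

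Striatal markers were higher for 10 of 10 with L803mts, at 3.82, 2.97 and 2.79 against 2.88, 2.67 and 2.60 in control, but for 1 of 10 with siGSK3b and 4 of 10 with ketamine. Oligodendrocyte markers were at 6.05, 5.97 and 5.88 in control and 5.72, 5.76 and 5.71 under the siGSK3b label, with no overlap and 1 of 10 higher. The counts for these were 2 and 3 of 10 with L803mts and ketamine. Astrocyte markers were higher for 1, 4 and 2 of 10 in the 3 tables. Microglial markers were higher for 1 of 10 with siGSK3b and 2 of 9 with ketamine, and for 2 of 9 with L803mts, where they stood at 3.87, 3.90 and 3.97 in control and 3.77, 3.86 and 3.78 in treated libraries without overlap. Thalamic and habenular markers were higher for 4 of 8, 7 of 8 and 4 of 7. The part of any of these, or of the hippocampal neuron markers, in the values of Fzd4 and Lrp6 was not tested.

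The Fzd4 promoter is shown because Fzd4 is the gene that passed the authors' test. The 250 bases before its start (RefSeq, GRCm38.p6, chr7:89404116-89404365, plus strand) hold 7 GC boxes (GGGCGG on either strand, some overlapping) and 1 CCAAT box (CCAAT on either strand), written in capitals.
Fzd4: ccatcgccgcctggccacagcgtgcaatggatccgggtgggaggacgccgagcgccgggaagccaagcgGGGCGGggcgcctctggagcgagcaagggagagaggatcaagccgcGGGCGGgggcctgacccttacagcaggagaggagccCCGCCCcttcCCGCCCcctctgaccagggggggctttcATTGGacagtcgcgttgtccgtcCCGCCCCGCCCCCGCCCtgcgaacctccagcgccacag
Promoter sequences were at hand for 5 of the 9 genes (Fzd4, Dvl1, Dvl2, Dvl3 and Nkd1). None of these 5 windows held the TCF/LEF core motif on either strand (CTTTGAT, its form CTTTGAA, or with the last pair changed, CTTTGTT and also CTTTGTA), which 14.8% of 32851 windows of the same length hold. A GC box was in the windows of 4 of the 5 (all but Nkd1), against 32.7% of all windows. A CCAAT box was only in that of Fzd4 among the 5, against 33.8%. Each window lies before a RefSeq start, and whether this is the start of the measured locus was not determined, for Nkd1 in particular. What a window lacks is therefore not read as a feature of the gene.

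Fzd3, a Frizzled receptor needed for axon guidance in the mouse brain, was the more abundant of the pair, with similar means in all groups. It was at 33.1, 28.8 and 31.4 FPKM in control and 29.7, 27.2 and 31.3 under the siGSK3b label. With L803mts it was at 33.6, 32.5 and 25.9 against 33.4, 29.3 and 31.9, and with ketamine at 35.7, 30.5 and 27.1 against 33.1, 28.7 and 31.6. The groups overlapped in every table. Differences in log2(FPKM + 1) were −0.08, −0.04 and −0.01, and the widest of the 95% intervals (limma, for a single gene) ran from −0.34 to 0.25. Against a control mean of 31.1 FPKM for Fzd3 in the siGSK3b table, that of Fzd4 was 2.41.

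Lrp6, the co-receptor phosphorylated by GSK3, had a higher treated mean in all 3 tables, which share their control libraries and are not independent. It passed neither test in any of them. In the siGSK3b table it was at 23.9, 19.9 and 20.1 FPKM in control and 23.4, 25.8 and 24.9 in the treated libraries. In the L803mts table control was at 47.7, 38.2 and 42.8 and L803mts at 49.1, 48.2 and 49.998. For ketamine, control was at 38.7, 29.1 and 33.1 and ketamine at 37.8, 38.4 and 35.98. As for Fzd4, control replicate 1 was the highest control library in each table. The groups were apart only with L803mts.

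The log2(FPKM + 1) difference of Lrp6 was 0.21 with siGSK3b (95% interval −0.04 to 0.46), 0.20 with L803mts (−0.06 to 0.45) and 0.16 with ketamine (−0.10 to 0.42), with adjusted p of 0.884, 0.757 and 0.885 by limma. In the authors' deposited tables the log2 fold changes were 0.22, 0.20 and 0.15. The unadjusted p with siGSK3b was 0.0487 there, with an FDR of 0.883. Against control replicate 1 alone the differences of Lrp6 were 0.05, 0.04 and −0.05. The choroid plexus levels given beside Fzd4 stand beside Lrp6 as well, and their part in these values was not tested.

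Lrp5, the co-receptor that pairs with FZD4 in vessels, was low in all tables. At the siGSK3b locus it was at 1.81, 3.33 and 2.08 FPKM in control and 1.89, 5.03 and 2.59 in the treated libraries. At the L803mts locus it was at 1.42, 0.723 and 1.04 in control and 1.47, 1.39 and 1.36 with L803mts, and at the ketamine locus at 3.98, 0.888 and 1.42 in control and 2.06, 3.30 and 1.25 with ketamine. Groups overlapped in all 3. The log2(FPKM + 1) differences were 0.25 (95% interval −0.45 to 0.94), 0.24 (−0.20 to 0.68) and 0.13 (−0.78 to 1.03), so for this gene differences of either sign lie within the error. Without siGSK3b replicate 2 the first was −0.06.

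Dvl1 had the highest FPKM of the Dishevelled genes wherever most of its length was measured. In the ketamine table, though, Dvl2 was read over only 481 bases, so those loci are not alike. In the L803mts table Dvl1 was at 47.97, 55.6 and 62.9 FPKM in control and 48.4, 57.3 and 55.6 with L803mts. With ketamine, Dvl1 was at 27.0, 23.3 and 30.9 against 26.8, 34.2 and 28.3 in control. The short locus of the siGSK3b table was at 3.95, 3.91 and 5.65 in control and 5.88, 4.47 and 4.18 in the treated libraries. Groups overlapped in each table, and the log2(FPKM + 1) differences were −0.04, −0.14 and 0.09 in that order, with limma adjusted p of 0.945, 0.921 and 0.976.

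Dvl2 gave the lowest ranked difference of the 9. Over the 481-base locus of the ketamine table Dvl2 read 5.64, 4.58 and 5.80 FPKM in control and 3.70, 2.53 and 2.17 with ketamine. Every ketamine library lay below every control library, as at 6.19% of all loci of that table. The ratio of the means was 0.524, and the log2(FPKM + 1) difference was −0.75 (95% interval −1.19 to −0.32), lower than at all but 0.456% of the loci. It did not pass the adjustment (limma adjusted p = 0.623, and an FDR of 0.789 in the authors' deposited table). Leaving out any single library kept the difference between −0.92 and −0.63. In GRCm38 the Dvl2 gene overlaps Acadvl, on the opposite strand, by 2119 bases. Whether the 481-base locus, given on NCBIM37, lies in that stretch was not determined. Within the stretch, reads of the pair can be told apart only if strand was used in counting, which is not given in the sources used here.

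Over its longer locus Dvl2 passed neither test with siGSK3b or L803mts. It was at 8.39, 12.6 and 15.04 FPKM in control and 9.50, 15.3 and 7.47 under the siGSK3b label. In the L803mts table it was at 9.24, 15.1 and 16.5 in control and 17.5, 14.4 and 20.1 with L803mts. Differences in log2(FPKM + 1) were −0.17 (95% interval −0.81 to 0.47) and 0.35 (−0.14 to 0.85), with groups overlapping. The ketamine and the longer loci share no base, so the 3 differences are not of the same part of Dvl2.

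Dvl3 varied widely between libraries of a group. It was at 4.32, 5.07 and 9.72 FPKM in control and 3.47, 10.1 and 5.65 under the siGSK3b label. In the L803mts table it was at 2.69, 4.15 and 6.11 in control and 3.35, 4.42 and 10.2 with L803mts, and in the ketamine table at 3.62, 5.09 and 8.18 in control and 7.20, 6.46 and 5.16 with ketamine. Control replicate 3 was the highest control library in each table, and a single treated library, siGSK3b replicate 2 or L803mts replicate 3, was the highest of its group. The log2(FPKM + 1) differences were −0.02, 0.32 and 0.18, each with groups overlapping. Without L803mts replicate 3 the second was −0.08.

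Neither target gene passed a test. Nkd1 was at 7.89, 12.9 and 11.0 FPKM in control and 10.7, 10.8 and 9.35 under the siGSK3b label, and at 7.96, 12.9 and 9.94 in control and 12.6, 10.8 and 9.30 with L803mts. The treated libraries all lay inside the range of the control libraries. Over the short downstream locus of the ketamine table it was at 0.912, 0.418 and 1.03 in control and 0.793, 0.715 and 0.525 with ketamine, again inside the control range. The log2(FPKM + 1) differences were −0.02 (95% interval −0.42 to 0.39), 0.09 (−0.34 to 0.53) and −0.08 (−0.53 to 0.37). With 3 libraries per group, changes of Nkd1 within these intervals remain possible. The intervals are for a single gene, without adjustment over all loci, and are not a limit of detection.

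Ccnd1, whose control libraries had the smallest SD relative to their mean of the 9 genes in every table, was measured over nearly the same locus in every table (chromosome 7, 152115717 to 152125580 in the siGSK3b and ketamine tables). It was at 15.96, 14.8 and 16.004 FPKM in control and 17.4, 17.1 and 14.6 under the siGSK3b label. With L803mts it was at 13.0, 14.7 and 15.7 against 16.1, 15.1 and 16.4, and with ketamine at 14.5, 14.8 and 13.2 against 15.8, 14.5 and 15.9. The groups overlapped each time, with 2 of 3 L803mts libraries below all control libraries. The log2(FPKM + 1) differences were 0.06 (95% interval −0.19 to 0.32), −0.13 (−0.41 to 0.15) and −0.11 (−0.35 to 0.12), with limma adjusted p of 0.968, 0.799 and 0.905. In GRCm38 Ccnd1 overlaps LTO1, on the opposite strand, by 1771 bases.

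**Figure D4:**
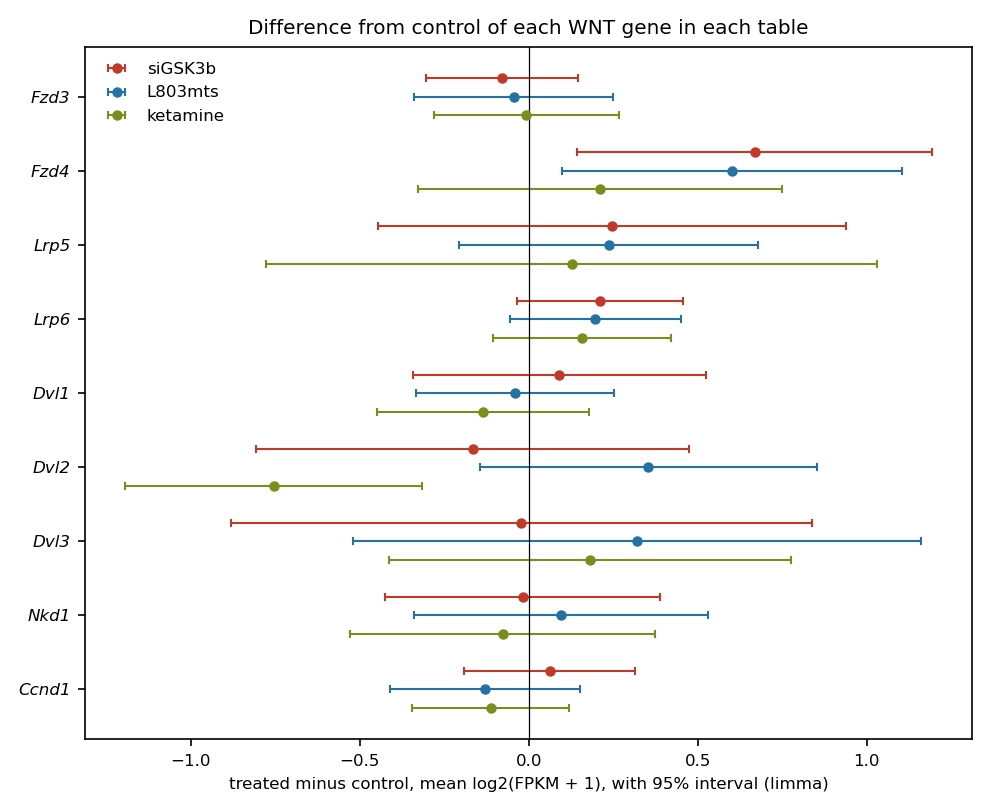
Difference in mean log2(FPKM + 1), treated minus control, for each gene in each table (points), with the 95% interval of limma for a single gene, not adjusted for the number of loci. The intervals leave out 0 for Fzd4 with siGSK3b (0.14 to 1.19) and L803mts (0.10 to 1.10) and for Dvl2 with ketamine (−1.19 to −0.32), and none of these passes the adjustment over all loci.

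Over the 9 genes the treated mean of log2(FPKM + 1) was higher for 5 of the 9 genes with siGSK3b, 6 with L803mts and 4 with ketamine, against 51.9%, 45.9% and 46.9% of all loci. The median difference was 0.06, 0.20 and −0.01, beside 0.01, −0.02 and −0.01 over all loci.

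The other genes of the pathway were read from 7 lists holding 131 genes, of which 88, 96 and 93 were measured as single named loci in the siGSK3b, L803mts and ketamine tables. Of these 84, 92 and 93 entered the test. By limma 0 passed in any table, and 0 passed the authors' test. At an unadjusted p under 0.05 limma had 1 higher and 3 lower with siGSK3b, 8 higher and 1 lower with L803mts, and 4 higher and 2 lower with ketamine. That is 4.76%, 9.78% and 6.45% of those tested, beside 5.83%, 6.18% and 6.13% of all loci. The median difference over the lists was −0.01, 0.07 and −0.01 in log2(FPKM + 1). Axin2, a widely used readout of β-catenin signalling, shared its row with Ccdc46 in every table and was not read as a single gene.

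By list, values follow in the order siGSK3b, L803mts and ketamine, to be read beside the 51.9%, 45.9% and 46.9% of all loci with a higher treated mean. Among the tested receptors 5 of 10, 6 of 10 and 8 of 12 were higher, with median differences of 0.00, 0.08 and 0.08. For ligands and their release factors the counts were 4 of 13, 6 of 13 and 6 of 14 (medians −0.14, 0.00 and −0.06). Of the inhibitors 3 of 7, 2 of 8 and 7 of 9 were higher (−0.02, −0.21 and 0.03). Dishevelled partners and planar polarity genes had 10 of 15, 12 of 17 and 9 of 17 higher (0.05, 0.20 and 0.00). In the destruction complex 7 of 14, 9 of 15 and 3 of 15 were higher (0.00, 0.06 and −0.06). The TCF/LEF group had 4 of 10, 6 of 12 and 5 of 10 higher (−0.08, 0.11 and −0.06), and the target genes 8 of 15, 11 of 17 and 7 of 16 (0.00, 0.08 and −0.02). Groups did not overlap for 9.52%, 18.5% and 10.8% of all tested list genes, against 10.6%, 12.5% and 11.5% of all loci.

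**Figure D5:**
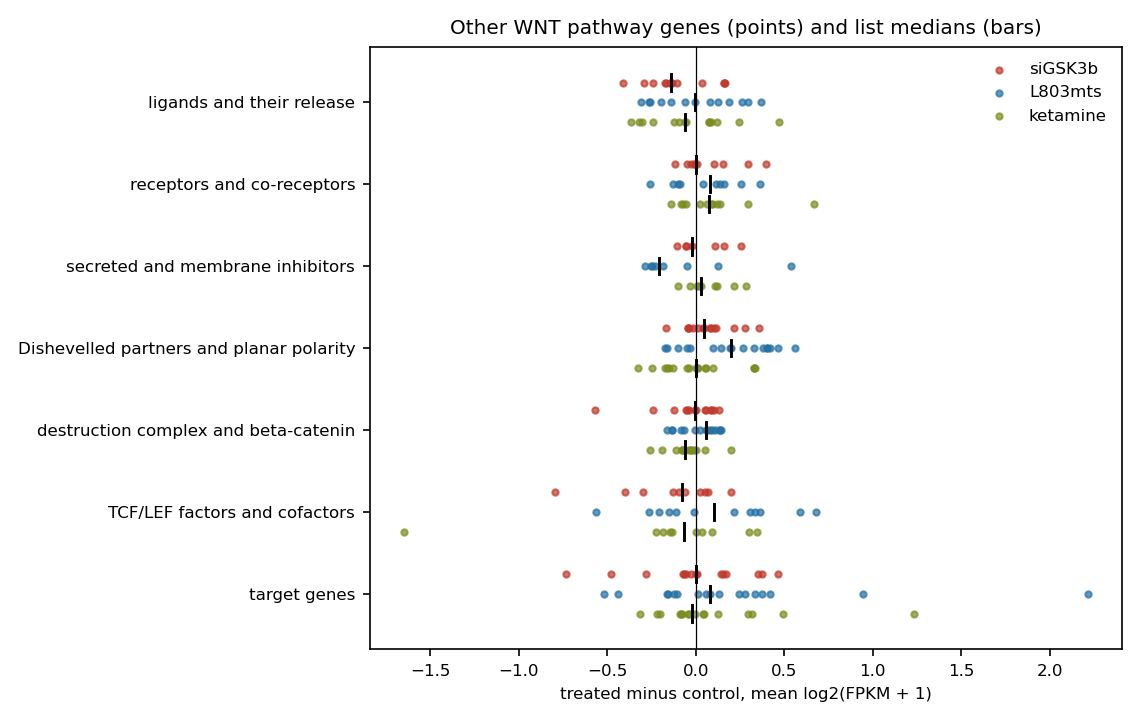
Difference in mean log2(FPKM + 1), treated minus control, of every tested gene of 7 lists of other WNT pathway genes (points), by table, with list medians (black bars). List medians lie between −0.21 and 0.20, and no gene passed the adjustment over all loci.

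None of the genes with the highest control level in each list passed a test, and the siGSK3b table is given here unless another is named. Ryk, a WNT receptor related to tyrosine kinases, was at 28.1 ± 1.82 FPKM in control (SD, n = 3) and 28.2 ± 3.87 under the siGSK3b label. Tspan12, a partner of FZD4 in Norrin signalling, had overlapping groups there. It was at 19.9 ± 0.368 FPKM in control and 19.8 ± 2.38 under the siGSK3b label. In the L803mts table it was at 21.6 ± 0.512 in control and 18.0 ± 2.32 with L803mts. The groups were apart there (limma adjusted p = 0.757), as at 6.67% of all loci of that table with treated lower. Wls, which carries WNT ligands to the cell surface, was at 25.4, 18.0 and 18.6 FPKM in control and 25.05, 23.3 and 20.6 under the siGSK3b label, with control replicate 1 highest as for Fzd4. Porcn, which attaches the lipid to WNT ligands, was at 26.3 ± 1.66 and 29.7 ± 3.70. Dkk3, of the Dickkopf family, was at 44.4 ± 3.73 and 43.1 ± 7.75 FPKM, and Frzb, a secreted decoy receptor, at 9.06 ± 2.25 and 9.70 ± 0.923.

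Among the signalling genes Ctnnb1, which encodes β-catenin, was at 94.5, 80.2 and 88.8 FPKM in control and 76.8, 69.3 and 73.5 with ketamine. The groups were apart (limma adjusted p = 0.759), as at 6.19% of all loci of that table with treated lower. Values of Ctnnb1 with siGSK3b and L803mts are not given here. Csnk1a1, the kinase that primes β-catenin for GSK3, was at 64.7 ± 1.35 in control and 71.0 ± 4.70 under the siGSK3b label. Rac1 and Rhoa, small GTPases of the planar polarity branch, were at 84.9 ± 5.64 and 46.5 ± 1.62 in control and 87.6 ± 6.81 and 48.1 ± 2.35 in those libraries. The corepressor genes Tle1 and Ctbp1 were at 171 ± 22.6 and 22.6 ± 13.4 FPKM in control and 164 ± 23.0 and 16.7 ± 9.72 under the siGSK3b label. Id2, an inhibitor of basic helix-loop-helix factors, was at 56.96 ± 6.38 and 54.3 ± 4.90, and Tnfrsf19, a receptor gene induced by WNT signals, at 9.50 ± 0.478 and 7.70 ± 1.23.

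The genes whose pattern across libraries was most like each of the 9 were sought among 11850 named genes, by the lowest over the 3 tables of Pearson's r of log2(FPKM + 1) over 6 libraries. Libraries of 1 table share their normalisation and all tables share the control libraries, so these values are a description. For Fzd4 the nearest were Slc31a1, a copper importer gene (lowest r 0.98), 1110059M19Rik (0.98) and Sema3b, a semaphorin gene (0.97). For Lrp6 they were Rsph4a, a gene of motile cilia (0.93), Ifitm2 (0.92) and 1700003M02Rik (0.91). Fzd3 was nearest to Oat (0.90), Dvl3 to Zbtb39 (0.90), Dvl2 to Adcy6 (0.86) and Ccnd1 to Gm14169 (0.86). For Lrp5, Dvl1 and Nkd1 the nearest had a lowest r of 0.79 (Pdlim5), 0.74 (Lhfpl2) and 0.66 (AI854517). The tables report different parts of Lrp5, Dvl1, Dvl2 and Nkd1, so their lowest r mixes different loci. A low value is therefore not read as a lack of partners.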

How the data were processed

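The authors deposited 3 tables of mouse hippocampus RNA-seq, giving for every locus the FPKM of libraries and groups, a log2 fold change (treated here as a score, since it is not finite where a group is at 0), a p-value and an FDR, per the file headers. TopHat2 2.0.9, Cufflinks and Cuffdiff are named in the submitters' processing notes, with the builds GRCh37 and NCBIM37. The sources used here do not give their settings. The treatment text spells the inhibitor L808mts, the titles and treatment labels L803mts. Groups and replicate numbers came from the titles. Group FPKM values were not used.

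Each table's 6 libraries were compared on log2(FPKM + 1) by limma 3.58.1 in R 4.3.3, its variance prior following mean intensity, over the 16351, 17074 and 17545 loci with a deposited p below 1 (siGSK3b, L803mts, ketamine), with Benjamini-Hochberg adjustment over those loci. The deposited FDR follows the same adjustment over the same loci. Limma was taken as the main test because it can be recomputed under other settings, and the authors' test is given beside it. The limma fit was tested on simulated data, and the outcome is not reported here or used as support. With 3 libraries against 3 the smallest exact permutation p is 0.1, so none was run for single genes.

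The 9 genes and the lists were chosen with earlier results of these data known. Named besides the 9 were any other pathway gene called by either test, the 2 genes of each list with the highest control level, and the 3 genes of most similar pattern, of which the text gives a selection. Older names were matched through RefSeq synonyms, and loci with joint names were not matched. Gene spans, strands and overlaps are those of GENCODE M21 on GRCm38, by name only. Alternatives were the authors' test, a pseudocount of 0.1, a filter at a mean of 1 FPKM, median-centred libraries, a replicate block, no intensity trend and leaving out each library.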

Additional observations from a re-analysis of the deposited data

How the results depend on the processing

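Limma called 1, 0 and 2 loci in the siGSK3b, L803mts and ketamine tables, and the authors' deposited test 83, 111 and 77. Of the 9 WNT genes limma called 0, 0 and 0, and the authors' test 1, 1 and 0. Median-centring gave 2 loci with siGSK3b, and the fit without an intensity trend 1 with ketamine. The replicate block gave 2 loci with siGSK3b and 1 with ketamine and called none of the 9 genes. Same-numbered libraries correlated between −0.16 and 0.19 in their deviations from group means, and in no table did every library match its own number best, so the numbers were not taken as pairs. Leaving out 1 library gave 0 to 36 loci with siGSK3b, 0 to 36 with L803mts and 1 to 13 with ketamine. The 36 came without control replicate 1 in both tables and the 13 without control replicate 2. It gave 0 to 0 of the WNT genes in each table. The cause of these shifts was not tested. Of 108 differences of the 9 genes under other planned settings 107 moved by less than the SD between replicates, the exception being Lrp5 with L803mts at a pseudocount of 0.1 (0.42 against 0.24). Of the 108, 2 had the other sign. The replicate block cannot change a difference where both groups hold the same replicate numbers, so its values among the 108 were fixed in advance. Leaving out a library turned the sign of 13 of the 27 differences in at least 1 case, none of them past the threshold. No member had another locus row, so that alternative could not be run. Read depth is unknown, which leaves the counting error of low genes such as Lrp5 and Fzd4 unmeasured.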

Other observations

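Groups did not overlap for 8 of 84, 17 of 92 and 10 of 93 tested genes of the other WNT lists with siGSK3b, L803mts and ketamine, beside 10.6%, 12.5% and 11.5% of all loci. Those with a difference of at least 0.5 in log2(FPKM + 1), a limit set after the values were seen, numbered 2, 5 and 1. All are named here, and none passed limma's adjustment (adjusted p between 0.735 and 0.757). With siGSK3b these were Cd44, a hyaluronan receptor gene (10.4, 8.62 and 7.28 FPKM in control, 5.17, 5.80 and 3.72 treated), and the corepressor gene Tle2 (1.76, 2.22 and 1.45 against 0.410, 0.535 and 0.937). Tle2 was lower with L803mts as well (1.77, 2.25 and 1.48 against 0.838, 0.723 and 1.19), in a comparison that shares the control libraries. Higher with L803mts were Rnf43, which encodes a ubiquitin ligase that removes Frizzled receptors (2.13, 1.82 and 1.80 against 3.64, 3.32 and 2.76), the planar polarity cadherin gene Celsr3 (1.85, 1.82 and 1.84 against 3.57, 2.13 and 4.10), and Tcf7l2 (0.465, 0.669 and 0.573 against 1.201, 0.853 and 2.19). Birc5, a gene of dividing cells, was listed at 1.30, 0 and 1.204 in control and at 2.34, 10.01 and 12.8 with L803mts. With ketamine it was the Frizzled receptor gene Fzd2 (0.608, 1.38 and 0.626 against 1.92, 2.46 and 1.48). Tcf7l2 also marks the thalamus. For 8 thalamic and habenular markers, Tcf7l2 itself among them, the mean log2(FPKM + 1) was 2.75, 2.57 and 2.32 in control. With L803mts it was 3.26, 2.75 and 2.81. This mean is therefore partly made of the Tcf7l2 values, and the part of thalamic tissue in them was not tested.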
